A study of Mus musculus with 58 samples.

Results

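The genes described here are the 52 of 9636 genes in the deposited count table whose symbol begins with Rab followed by a digit, measured in 58 libraries of mouse somatosensory cortex. They comprise 42 genes for Rab GTPases, 9 genes for partner proteins named after a Rab (Rab3gap1, Rab3gap2, Rab3il1, Rab3ip, Rab11fip2, Rab11fip3, Rab11fip4, Rab11fip5 and Rab5if) and 1 long noncoding RNA, Rab10os, which is transcribed from the opposite strand at the Rab10 locus. The set is therefore wider than the GTPases themselves. The mice were C57BL/6J of both sexes, aged 2 to 4 months at the start, and underwent 5 closed head injuries (5xCHI), 1 per day, or 5 sham procedures. SB239063 (SB), an inhibitor of the kinase p38 MAPK, was given intraperitoneally at 20 mg/kg in saline 30 min after each procedure, and vehicle mice received saline alone. All libraries carry the chronic label, about 1 month after the last injury, a time given as about 18 and 34 days, and no label says which of these days applies to which mouse. The females were 9 sham vehicle, 3 sham SB, 12 injured vehicle and 11 injured SB mice, and the males were 5 sham vehicle, 2 sham SB, 8 injured vehicle and 8 injured SB mice. The labels place them in 4 cohorts per sex (F1 to F4 and M1 to M4), and sham SB mice occur in F1, F2, M1 and M2 only. Nothing in the labels says that each library is a separate animal, so p-values measure the spread between these samples. Counts of mice given here are counts of libraries.

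Rab GTPases are membrane-bound switches that give each compartment of the cell its identity. Exchange factors load them with GTP, the loaded form recruits effectors such as tethers, motors and scaffolds, GTPase-activating proteins end the signal, and GDP dissociation inhibitors carry the inactive form through the cytosol. In neurons, Rab3 proteins sit on synaptic vesicles, Rab5 on early endosomes, Rab7 on late endosomes, Rab11 on recycling endosomes and Rab6 on the Golgi.

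Each library held between 28316280 and 49158277 counts over the listed genes, and the smallest count of any Rab-named gene in any library was 147. Rab-named genes took between 0.669% and 0.789% of a library's counts. Their share was 0.745% ± 0.0267 (SD, n = 14) in sham vehicle, 0.758% ± 0.0125 (SD, n = 5) in sham SB, 0.750% ± 0.0195 (SD, n = 20) in injured vehicle and 0.743% ± 0.0245 (SD, n = 19) in injured SB mice, and the 4 ranges overlapped. Levels are CPM (counts scaled to a common library size by TMM). On at least 1 of the first 5 principal components of all genes, 4 libraries lay far from the rest: injured SB female 8, sham vehicle females 1 and 7, and sham vehicle male 2. Markers of excitatory neurons, inhibitory neurons and astrocytes were all measured (7 of 7, 7 of 7 and 10 of 10), whereas none of 5 choroid plexus and none of 5 red blood cell markers is in the table analysed here. In bulk tissue, fewer cells of a type and less RNA per cell cannot be told apart. Closely related genes such as Rab1a and Rab1b, Rab6a and Rab6b, or Rab11a and Rab11b could share reads, and no source used here gives the strand setting of the counting, so Rab10 and Rab10os are uncertain.

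Promoter windows of the Rab-named genes were set beside those of all tested genes, and differences in motif share were not tested. Windows from 250 bases before to 50 bases after a transcription start, from RefSeq on GRCm38.p6, were found for 44 of the 52 genes, and Rab2a, Rab4a, Rab11fip4, Rab18, Rab26, Rab27b, Rab30 and Rab36 had none. The GC box GGGCGG, searched on both strands, occurred in at least 1 window of 37 of these 44 genes (84.1%) and of 72.1% of the 7764 tested genes with a window. CCAAT occurred in 54.5% against 43%, the E-box CACGTG in 15.9% against 12.4%, TATAAA in 9.09% against 8.08%, the cyclic AMP response element TGACGTCA in 4.55% against 3.77% and the NRF1 site in 0% against 2.46%. The median GC content was 63.5% for the Rab-named genes and 61.8% for the tested genes. The windows of Rab22a (chr2:173659595-173659894, plus strand), Rab11fip5 (chr6:85374585-85374884, minus strand) and Rab34 (chr11:78188177-78188476, plus strand, the more upstream of 2 windows) are given because these are the genes with a window that differed most clearly between female cohorts, as described further on. Each is written 5′ to 3′ on its own strand, with GGGCGG and its reverse complement in capitals.
Rab22a: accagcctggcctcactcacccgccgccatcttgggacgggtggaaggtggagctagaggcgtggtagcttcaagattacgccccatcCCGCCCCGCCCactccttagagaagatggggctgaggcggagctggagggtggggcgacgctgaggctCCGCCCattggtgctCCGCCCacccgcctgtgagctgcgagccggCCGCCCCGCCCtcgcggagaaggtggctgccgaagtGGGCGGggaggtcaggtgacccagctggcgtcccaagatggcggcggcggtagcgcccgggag
Rab11fip5: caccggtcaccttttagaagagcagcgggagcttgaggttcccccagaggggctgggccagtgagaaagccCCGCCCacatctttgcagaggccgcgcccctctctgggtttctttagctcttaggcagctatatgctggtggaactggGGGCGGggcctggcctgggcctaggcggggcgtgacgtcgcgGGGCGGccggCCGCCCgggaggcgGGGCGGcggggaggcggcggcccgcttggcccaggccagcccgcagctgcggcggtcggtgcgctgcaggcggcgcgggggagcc
Rab34: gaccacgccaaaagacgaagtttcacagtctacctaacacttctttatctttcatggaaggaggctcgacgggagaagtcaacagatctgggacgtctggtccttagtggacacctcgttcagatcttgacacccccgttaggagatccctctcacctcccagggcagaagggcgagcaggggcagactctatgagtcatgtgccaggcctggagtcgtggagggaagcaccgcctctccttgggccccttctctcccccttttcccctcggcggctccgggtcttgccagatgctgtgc
The first window holds 7 matches and the second 5, whereas the upstream Rab34 window holds 0. The other Rab34 window, not printed, holds 1. A match is a run of letters and was not tested as a binding site.

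The order of abundance was set by secretory, Golgi and late endosomal members. Compared per kilobase of exon in the 14 sham vehicle mice, Rab3a, the GTPase of synaptic vesicle release, stood highest at 261 ± 40.4 CPM per kb (SD, n = 14). The Golgi GTPases Rab6b and Rab6a followed at 220.4 ± 25.2 and 214 ± 22.4 CPM per kb, and these 3 means did not differ beyond their spread. Rab7, which drives traffic to lysosomes, stood at 134 ± 7.66 CPM per kb and Rab2a, which acts between endoplasmic reticulum and Golgi, at 101 ± 10.8. Rab14 (87.7), Rab15 (77.2), Rab1a (74.2), Rab5c (65.8) and Rab11fip4 (65.2 CPM per kb) completed the 10 highest, and from Rab2a down each mean ± SD overlapped that of the next gene. At the other end were Rab27b, a GTPase of secretory granules, at 5.28 ± 1.08, Rab30, a Golgi GTPase, at 5.09 ± 0.968, and Rab3il1, an exchange factor of Rab3 and Rab8, at 1.69 ± 0.199 CPM per kb. The median Rab-named gene had 20.9 CPM per kb, against 14.0 for the 9549 genes with a length.

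**Figure D1:**
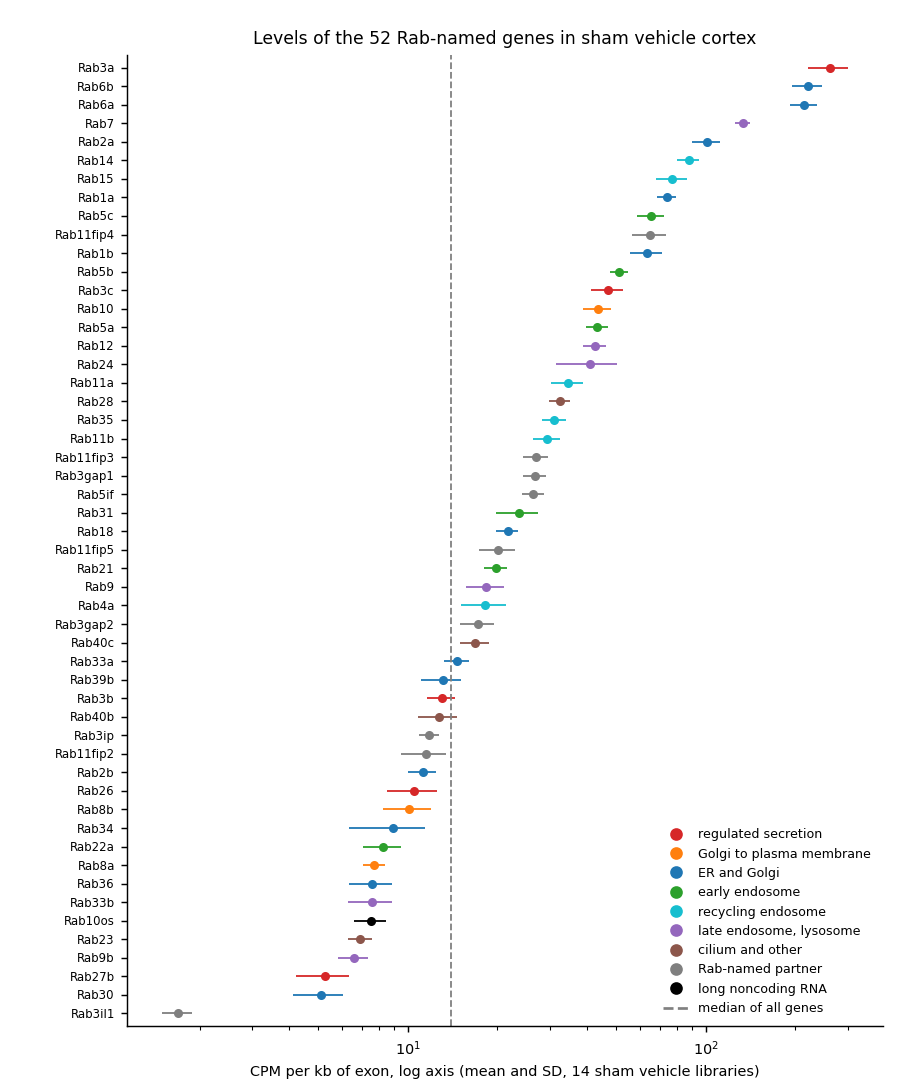
Level of each of the 52 Rab-named genes in sham vehicle cortex, as CPM per kb of exon on a log axis (points are means and bars SDs over 14 libraries, colours mark the classes of compartment). Rab3a, Rab6b and Rab6a lie at the top between 214 and 261 CPM per kb and Rab3il1 at the bottom at 1.69, and the dashed line is the median of all genes.

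Within the Rab3 family 1 paralog stood highest per kb of exon. Rab3a exceeded Rab3c (47.1 ± 5.89 CPM per kb) and Rab3b (13.0 ± 1.41), and the ranges given by their SDs were separate. Rab5c (65.8 ± 6.88), Rab5b (51.3 ± 3.72) and Rab5a (43.3 ± 3.72), which all act on early endosomes, were closer together, although their means ± SD did not overlap. Rab11a (34.4 ± 4.19) and Rab11b (29.4 ± 2.96) overlapped within 1 SD, as did the plasma membrane-directed pair Rab8b (10.1 ± 1.86) and Rab8a (7.71 ± 0.654). These levels depend on the exon length assigned to each gene. Before division by length, Rab3a (467 ± 72.2 CPM) and Rab3c (419 ± 52.4) overlapped in the same mice. Rab5b (163 ± 11.8 CPM) then exceeded Rab5c (130 ± 13.5), and Rab11b (179 ± 18.1) exceeded Rab11a (80.4 ± 9.80). Rab8b (47.8 ± 8.82 CPM) stayed above Rab8a (35.1 ± 2.97).

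Variation between libraries was small for most members. The coefficient of variation of CPM over all 58 libraries had a median of 10.6% for the Rab-named genes and 12.4% for all genes. Rab7 varied least (5.41%), with 281 to 398 CPM and a median of 342. Rab34, a Golgi and cilium GTPase, varied most (24.4%), with 9.01 to 27.6 CPM and a median of 13.9.

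Closed head injury did not detectably change any Rab-named gene in vehicle mice. Of 52 members, 0 passed an adjusted p of 0.05 (edgeR quasi-likelihood test with cohort in the model, Benjamini-Hochberg over all 9636 genes), beside 0% of all genes. DESeq2 and limma-voom with quality weights also called 0 members. At an unadjusted p under 0.05 stood 1 member, beside 1.75% of all genes. The median log2 fold change was 0.0071 for the members and -0.00067 for all genes, and 32 of 52 were higher in injured mice, beside 49.4% of all genes. Without the 4 far libraries 0 members passed and 0 stood at an unadjusted p under 0.05, beside 108 of all 9636 genes. In that setting 29 of 52 were higher and the median was 0.0041. The 95% interval of the difference lay within 1.25-fold either way for all 52 members, beside 97.1% of all genes, so a change larger than that is outside each interval.

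Rab22a, a GTPase of early and recycling endosomes, had the smallest p. It ranged from 46.2 to 72.3 CPM with a median of 60.9 in sham vehicle mice and from 48.8 to 72.8 with a median of 64.1 in injured vehicle mice. The groups overlapped over nearly their whole range. Its log2 difference was 0.092 ± 0.045 (SE; unadjusted p = 0.0459, edgeR adjusted p = 1.00), and it was higher in injured mice in 6 of 8 cohorts. Rab8b, which carries cargo from the Golgi to the plasma membrane, ranged from 31.2 to 63.2 CPM (median 48.0) in sham vehicle and from 37.6 to 69.5 (median 53.6) in injured vehicle mice. Its log2 difference was 0.13 ± 0.069, and it was higher in injured mice in 7 of 8 cohorts. These ranges overlapped too. In F2, M1, M2 and M4 the cohort tallies for injury rested on a single sham vehicle library each. In F2 that library was sham vehicle female 1, a far library.

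Of the members lower in injured mice, Rab33a, an X-linked GTPase of Golgi-derived vesicles, and Rab3ip (Rabin8), an exchange factor for Rab8, had the smallest p. Rab33a ranged from 13.8 to 20.1 CPM (median 16.9) in sham vehicle and from 13.3 to 19.6 (median 16.0) in injured vehicle mice, a log2 difference of -0.097 ± 0.050, and was lower in 7 of 8 cohorts. Rab3ip ranged from 29.8 to 39.0 CPM (median 33.8) in sham vehicle and from 27.8 to 41.4 (median 31.0) in injured vehicle mice, a log2 difference of -0.090 ± 0.048, and was lower in 5 of 8 cohorts. Neither passed the test, and both pairs of groups overlapped. The other members chosen for small p were Rab3b (0.067 ± 0.042), Rab10 (0.057 ± 0.048) and Rab30 (0.082 ± 0.075) on the higher side and Rab40c (-0.080 ± 0.055), Rab34 (-0.11 ± 0.088) and Rab24 (-0.083 ± 0.073) on the lower side. Rab24 is linked to autophagy, and the sign of Rab24 and of Rab30 turned when the 4 far libraries were left out (0.026 and -0.0081). Without those libraries Rab22a was 0.037, Rab8b 0.046, Rab10 0.016, Rab40c -0.029 and Rab34 -0.023. Limma-voom with quality weights gave 0.019 for Rab22a, 0.086 for Rab8b, -0.041 for Rab33a and -0.040 for Rab3ip. Sham vehicle female 7 alone brought Rab34 to -0.026 and Rab24 to -0.019, sham vehicle female 1 brought Rab30 to 0.038 and sham vehicle male 2 brought Rab3ip to -0.057.

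**Figure D2:**
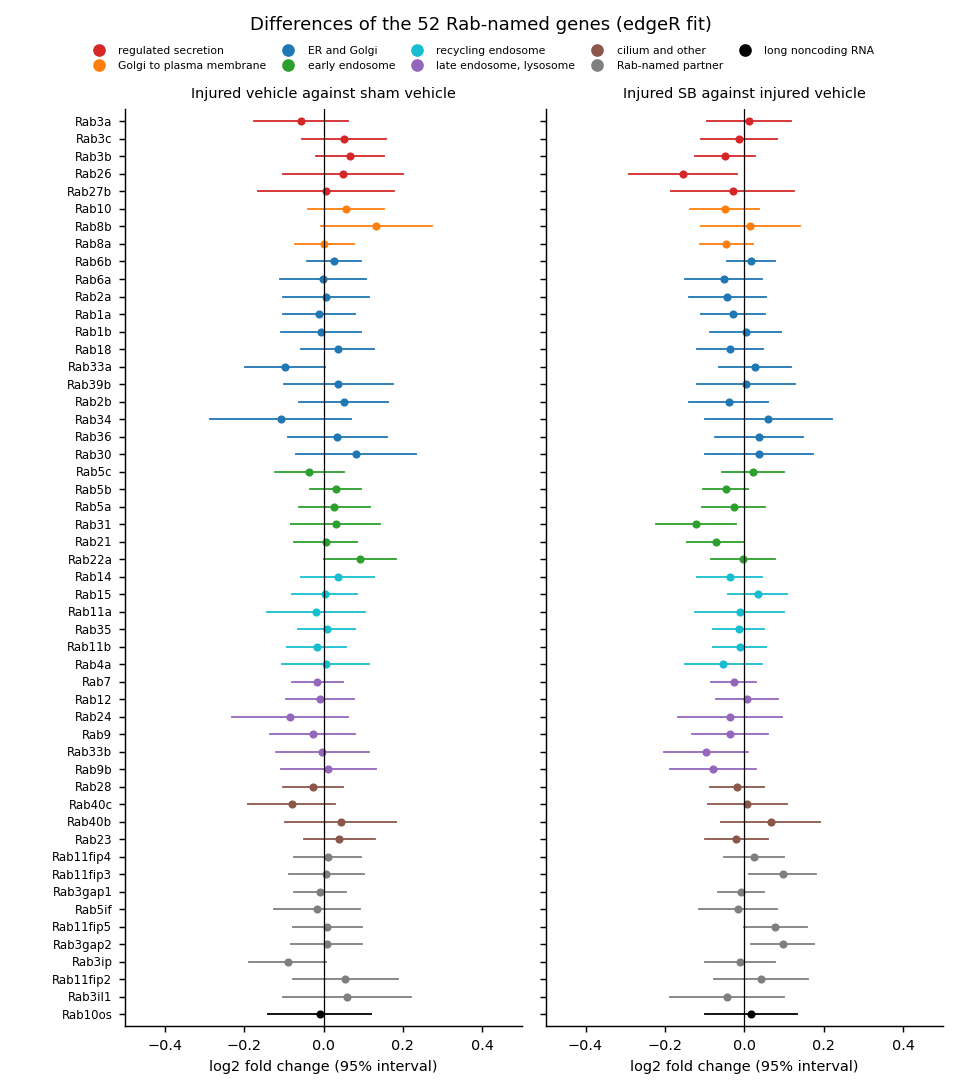
Log2 fold change of each of the 52 Rab-named genes with its 95% interval from the edgeR fit, for injured vehicle against sham vehicle mice (left) and injured SB against injured vehicle mice (right), coloured by class. All intervals lie within 1.25-fold either way, and no adjusted p was under 0.05.

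By compartment, the medians after injury were close to 0. All 3 Golgi to plasma membrane GTPases had positive values (median 0.057), as had 5 of 6 early endosome GTPases (0.029), 4 of 5 secretory GTPases (Rab3a, Rab3b, Rab3c, Rab26 and Rab27b; 0.049), 7 of 12 endoplasmic reticulum and Golgi GTPases (0.017), 4 of 6 recycling GTPases (0.0039) and 6 of 9 partner genes (0.0076). Of the late endosome and lysosome GTPases, 1 of 6 had a positive value (-0.012). No member of any class passed the test. The log2 differences ordered with exon length across genes (Spearman's rho 0.55 over the 52 members and 0.51 over 9549 genes, genes not being independent replicates). The textbook members lay near 0 as well: Rab3a -0.058 ± 0.059, Rab3c 0.051 ± 0.053, Rab5a 0.028 ± 0.044, Rab5b 0.030 ± 0.032, Rab5c -0.036 ± 0.043, Rab7 -0.016 ± 0.032, Rab11a -0.019 ± 0.062, Rab11b -0.017 ± 0.037 and Rab27b 0.0061 ± 0.086.

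SB in injured mice likewise changed no Rab-named gene detectably. Again 0 of 52 members passed an adjusted p of 0.05 in edgeR, beside 0% of all genes, and DESeq2 and limma-voom with quality weights called 0 members. At an unadjusted p under 0.05 stood 5 members, beside 7.06% of all genes. The median log2 fold change of the members was -0.014, against 0.0034 for all genes, and 20 of 52 were higher with SB, beside 52.2%. Without the 4 far libraries 0 members passed and 6 stood at an unadjusted p under 0.05, beside 788 of all 9636 genes. In that setting 19 of 52 were higher and the median was -0.019. All 52 intervals lay within 1.25-fold either way, beside 96.2%.

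Rab31, an early endosome GTPase, had the most uniform difference. It ranged from 78.6 to 116 CPM (median 89.4) in injured vehicle and from 58.2 to 99.0 (median 86.9) in injured SB mice. Its mean was lower with SB in 8 of 8 cohorts, by 0.036 to 0.48 on the log2 scale, and the fitted log2 difference was -0.12 ± 0.050 (unadjusted p = 0.0190, edgeR adjusted p = 0.663). The 0.48 came from F4, where such tallies rested on a single injured SB library, injured SB female 8, which is a far library. Rab26, a GTPase linked to the autophagy of synaptic vesicles, ranged from 20.4 to 37.0 CPM (median 25.9) in injured vehicle and from 16.9 to 33.3 (median 24.5) in injured SB mice. It was lower with SB in 7 of 8 cohorts, with a log2 difference of -0.15 ± 0.068 (unadjusted p = 0.0268, edgeR adjusted p = 0.689). In both genes the groups overlapped. Rab21, which carries integrins through early endosomes, had a log2 difference of -0.072 ± 0.036 and was lower in 6 of 8 cohorts.

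On the higher side were partner genes. Rab3gap2, the noncatalytic subunit of the complex that acts on Rab3 and Rab18, ranged from 93.5 to 140 CPM (median 123) in injured vehicle and from 110 to 146 (median 134) in injured SB mice. Its log2 difference was 0.097 ± 0.040 (unadjusted p = 0.0176, edgeR adjusted p = 0.663), and it was higher in 7 of 8 cohorts. Rab11fip3, an effector of Rab11 at recycling endosomes, ranged from 132 to 187 CPM (median 157) in injured vehicle and from 135 to 232 (median 170) in injured SB mice, a log2 difference of 0.097 ± 0.042, and was higher in 7 of 8 cohorts. The groups overlapped for both. Rab11fip5, another Rab11 effector, followed with 0.078 ± 0.039, Rab40b with 0.066 ± 0.062 and Rab15 with 0.034 ± 0.037. Next on the lower side were Rab33b (-0.097 ± 0.053) and Rab5b (-0.047 ± 0.028).

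By compartment under SB, 5 of 6 early endosome (median -0.037), 5 of 6 late endosome and lysosome (-0.036), 5 of 6 recycling (-0.013), 4 of 5 secretory (-0.029) and 2 of 3 Golgi to plasma membrane GTPases (-0.045) had negative values. Positive values were found for 7 of 12 endoplasmic reticulum and Golgi GTPases (median 0.0037), 5 of 9 partner genes (0.025), 2 of 4 cilium-linked and other GTPases (-0.0053) and Rab10os (0.016). The textbook members were again near 0: Rab3a 0.011 ± 0.053, Rab3b -0.049 ± 0.038, Rab3c -0.013 ± 0.048, Rab5a -0.027 ± 0.040, Rab5c 0.022 ± 0.039, Rab7 -0.027 ± 0.029, Rab11a -0.012 ± 0.056, Rab11b -0.012 ± 0.033 and Rab27b -0.029 ± 0.077. Oligodendrocyte and myelin markers moved in the same contrast: 14 of 14 measured markers were lower with SB (median -0.34, 0 past the adjusted threshold, 14 at an unadjusted p under 0.05). Their summed level ran from 5721 to 13508 CPM in injured vehicle and from 2754 to 9589 CPM in injured SB mice. The 4 measured striatal markers were all higher with SB (median 0.31), with sums of 133 to 390 and 136 to 902 CPM. Their part in the values of the Rab-named genes was not tested.

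**Figure D3:**
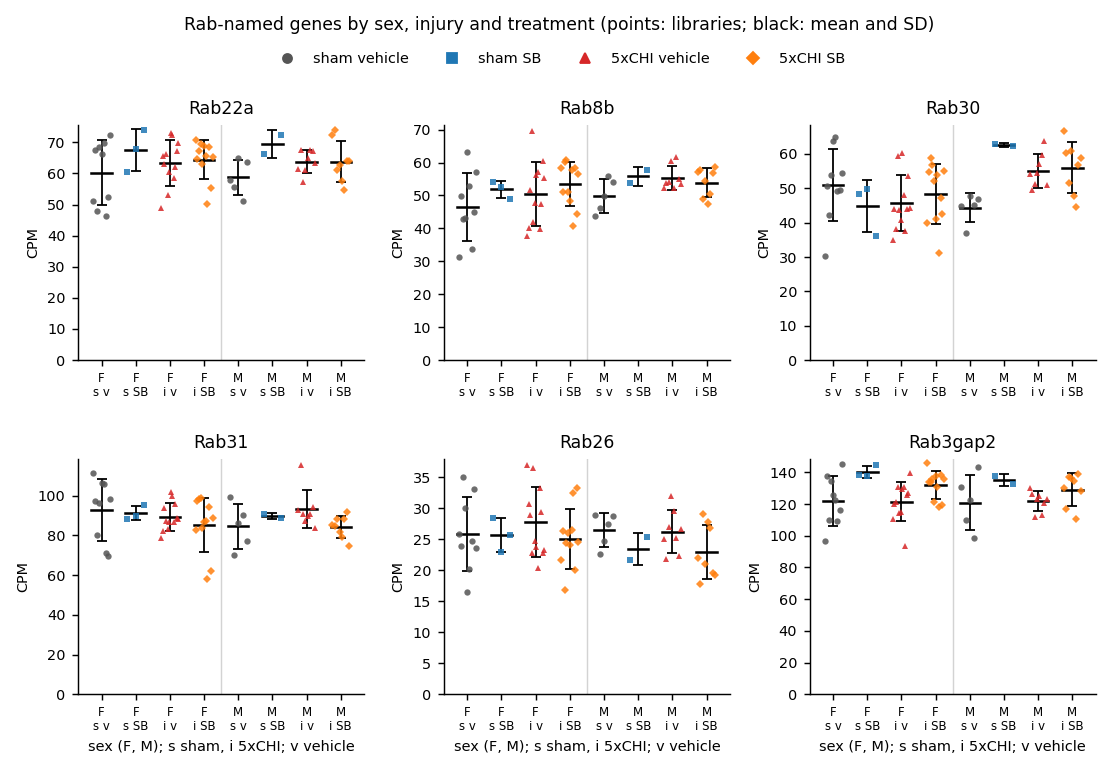
CPM of 6 Rab-named genes in every library by sex (F, M), sham (s) or 5xCHI (i) and vehicle (v) or SB; points are libraries and black bars means with SDs. For Rab30 the 5 male sham vehicle mice (37.1 to 47.8 CPM) lie below the 8 male injured vehicle mice (49.4 to 63.7 CPM). The 2 male sham SB mice (62.97 and 62.19 CPM) lie within the range of the latter.

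The remaining contrasts called no member either; they share the sham vehicle or injured vehicle mice with those above, so their values are not independent of them. Injured SB against sham vehicle mice had 0 of 52 members past the adjusted threshold (0% of all genes) and 4 at an unadjusted p under 0.05 (12.6% of all genes). Of the 52, 22 had a positive value (50.2% of all genes), and all 52 intervals lay within 1.25-fold (93.5%). With the length trend removed, 29 of 52 were positive (median 0.0056, against -0.010 before). At an unadjusted p under 0.05 stood 2 of them then, beside 712 of all 9636 genes. Before removal, the rank correlation with exon length was 0.54 over the members and 0.60 over all genes. Rab3gap2 stood at 0.10 ± 0.045, Rab11fip3 at 0.10 ± 0.047, Rab3ip at -0.10 ± 0.049 and Rab33b at -0.10 ± 0.059, all on the log2 scale. Without sham vehicle male 4, Rab3gap2 was 0.067, Rab11fip3 0.062 and Rab33b -0.067. SB in sham mice had 0 members past the threshold (0%) and 6 at an unadjusted p under 0.05 (7.02%). That count was 1 with the length trend removed, beside 474 of all 9636 genes, and 3 without the 4 far libraries, beside 547 genes. Positive values were found for 26 (47.1%), and 46 of 52 intervals lay within 1.25-fold (71.2%), with only 5 sham mice on SB. In that contrast Rab3gap2 was 137.7 and 132.7 CPM in the 2 male and 138.2, 138.0 and 144.4 CPM in the 3 female sham SB mice, against 96.4 to 145 CPM (median 122) in 14 sham vehicle mice. All 5 lay above the median of the sham vehicle mice and inside their range, with a log2 difference of 0.17 ± 0.068 (unadjusted p = 0.0143, edgeR adjusted p = 0.677). In F1 the sham vehicle libraries stood at 137.6 and 145.2 CPM, beside 138.0 and 144.4 CPM with SB. The single sham vehicle libraries of F2 (a far library), M1 and M2 stood at 96.4, 98.4 and 122.4 CPM, beside 138.2, 132.7 and 137.7 CPM with SB. Rab6b (0.12 ± 0.052), Rab33a (-0.17 ± 0.079) and Rab9 (-0.15 ± 0.083) completed the 2 of smallest p per direction. Without sham vehicle male 4, Rab3gap2 was 0.13, Rab6b 0.072 and Rab9 -0.090, and without sham SB male 2 Rab33a was -0.10. The injury by SB interaction had 0 members past the threshold (0%) and 1 at an unadjusted p under 0.05 (1.38%), which was Rab33a at 0.19 ± 0.091. Rab34 stood at 0.27 ± 0.16, Rab22a at -0.14 ± 0.080 and Rab6b at -0.10 ± 0.060 in the interaction, 18 of 52 values were positive (52.2%) and 41 of 52 intervals lay within 1.25-fold (66.7%). Single libraries moved these values: without sham SB male 2, Rab33a was 0.13 and Rab22a -0.071, and without sham vehicle male 4 Rab6b was -0.055.

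Split by sex, Rab30 stood out among the injury effects. In males it was 44.8, 37.1, 47.8, 45.1 and 46.8 CPM in the 5 sham vehicle mice and from 49.4 to 63.7 CPM (median 54.4) in the 8 injured vehicle mice. These male groups did not overlap. The 2 sham SB males, which were not injured, had 62.97 and 62.19 CPM, inside the range of the injured vehicle males. In females Rab30 ranged from 30.2 to 65.0 CPM (median 50.6) in 9 sham vehicle and from 35.0 to 60.2 CPM (median 44.0) in 12 injured vehicle mice, which overlapped. The log2 difference was 0.32 ± 0.12 in males (unadjusted p = 0.0104, edgeR adjusted p = 0.846) and -0.15 ± 0.092 in females (unadjusted p = 0.0981), and their difference was 0.47 ± 0.15 (unadjusted p = 0.00283, edgeR adjusted p = 0.786). None of these passed. Leaving out each library in turn, Rab30 ran from 0.25 to 0.38 in males and from 0.40 to 0.56 in the difference. Both lower ends came without sham vehicle male 2, a far library. The exon length of Rab30, 9534 bp, was the largest of the 52 members. For injury in females, in males and for the difference between sexes, 0 members passed (0% of genes each), with 1 member each at an unadjusted p under 0.05, beside 3.14%, 3.55% and 6.13% of all genes. Without the 4 far libraries these counts were 6, 1 and 3, beside 1504, 163 and 1400 of all 9636 genes. With the length trend removed they were 3, 1 and 2, beside 389, 276 and 598 genes. Positive values were found for 23, 31 and 29 members (45%, 50.2% and 51.8% of all genes), and 51, 46 and 33 intervals lay within 1.25-fold (92%, 71.4% and 45.6%). The 2 members of smallest p in each direction were, in females, Rab3b (0.12 ± 0.052) and Rab3c (0.094 ± 0.065) on the higher and Rab3ip (-0.11 ± 0.059) and Rab30 on the lower side. Rab3c was 0.031 and Rab30 -0.24 without sham vehicle female 1, and Rab3c turned without the 4 far libraries (injury in vehicle females: Rab3c -0.0035). In males they were Rab30 and Rab10 (0.13 ± 0.076), and Rab33a (-0.12 ± 0.080) and Rab5c (-0.091 ± 0.069). Without sham vehicle male 2, Rab33a was -0.081 and Rab5c -0.013, and limma-voom turned the sign of the former (injury in vehicle males: Rab33a 0.0012). In the difference between sexes they were Rab30 and Rab21 (0.15 ± 0.079), and Rab9b (-0.16 ± 0.12) and Rab11b (-0.097 ± 0.075), the last of which was -0.028 without sham vehicle male 2.

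For SB in injured mice split by sex, 0 members passed in females, in males or in the difference (0% of genes each), and 4, 2 and 2 members stood at an unadjusted p under 0.05, beside 7.21%, 1.88% and 0.913% of all genes. Positive values were found for 19, 22 and 31 members (52.7%, 51.9% and 48.4% of all genes), and 52, 50 and 42 intervals lay within 1.25-fold (91.2%, 88.2% and 70.2%). In females, the 2 of smallest p per direction were Rab11fip5 (0.11 ± 0.050) and Rab3gap2 (0.11 ± 0.051), and Rab9 (-0.13 ± 0.062) and Rab21 (-0.087 ± 0.046). In males they were Rab33a (0.12 ± 0.069) and Rab34 (0.18 ± 0.12), and Rab5b (-0.089 ± 0.044) and Rab26 (-0.21 ± 0.10). In the difference between sexes the same rule gave Rab23 (-0.18 ± 0.079), a GTPase of the cilium, and Rab33a (0.19 ± 0.091), beside Rab9 (0.18 ± 0.096) and Rab5b (-0.084 ± 0.057).

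The cohort was the one labelled factor with which Rab-named genes did change. Within females, 22 of 52 members passed an adjusted p of 0.05 for a difference between the 4 cohorts (edgeR, 17 of them GTPases), beside 50% of all genes, and 24 stood at an unadjusted p under 0.05, beside 57.2%. The 22 called are a share of the members that is below this background. Within males, 0 of 52 members passed and 3 stood at an unadjusted p under 0.05 in edgeR, beside 3.83% and 19.9% of all genes. Without the 4 far libraries, 3 members passed within males, beside 1258 of all 9636 genes. They were Rab5c (edgeR adjusted p = 0.0265), Rab11fip5 (0.0354) and Rab6b (0.0427). With only sham vehicle female 7 left out, 2 members passed within males, beside 769 genes. The called members came from most compartments: 5 of 6 early endosome, 4 of 12 endoplasmic reticulum and Golgi, 2 of 3 Golgi to plasma membrane, 3 of 6 late endosome and lysosome, 2 of 6 recycling and 1 of 5 secretory GTPases, 5 of 9 partner genes and 0 of 4 cilium-linked and other GTPases. Among the 22, the mean was highest in F1 for 10 and lowest in F4 for 13. Over the 4816 genes called, F1 was highest for 37.9% and F4 lowest for 40%.

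Rab22a and Rab11fip5, whose promoter windows are printed above, shared that order. Rab22a was 50.3, 48.8, 53.0, 48.0 and 52.3 CPM in the 5 mice of F4 and ranged from 67.1 to 74.0 CPM (median 69.2) in the 10 mice of F1. These 2 cohorts did not overlap, and the cohort means were 69.9 ± 2.37 (SD, n = 10) in F1, 60.1 ± 4.98 (n = 6) in F2, 64.3 ± 6.71 (n = 14) in F3 and 50.5 ± 2.13 (n = 5) in F4 (edgeR adjusted p = 9.27e-06). The 3 injured and the 2 sham mice of F4 lay together. Rab11fip5 was 113, 93.7, 103.9, 100.6 and 99.3 CPM in F4 and ranged from 121 to 148 CPM (median 132) in F1, again without overlap (edgeR adjusted p = 2.74e-05).

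Rab11fip4, a Rab11 effector abundant in cortex, had the smallest p (edgeR adjusted p = 8.49e-06). It was 394.9, 377.3, 405.9, 398.6 and 420.4 CPM in F4, from 448 to 505 CPM (median 487) in F1 and from 360 to 607 CPM (median 519) in F3. F4 lay below all of F1 and within the range of F3. The overlap with F3 rested on sham vehicle female 7, a far library, at 359.9 CPM. All other F3 libraries ran from 486.9 to 607 CPM, above F4. Rab6b, which moves vesicles from the Golgi along microtubules in neurons, was 1006, 948, 988.6, 1038 and 992.6 CPM in F4 and from 1162 to 1282 CPM (median 1239) in F1, without overlap (edgeR adjusted p = 1.56e-04). Rab15, a GTPase of recycling endosomes, had its highest mean in F1, 329 ± 20.4 CPM in F1, 267 ± 15.4 in F2, 273 ± 21.7 in F3 and 285 ± 25.8 in F4 (edgeR adjusted p = 4.47e-05). Of the 5 mice of F4, 1 lay inside the F1 range of 302 to 367 CPM, at 328 CPM.

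Rab34 ran the other way. It was 24.3, 24.0, 18.5, 18.9 and 19.6 CPM in F4 and from 9.01 to 13.1 CPM (median 11.5) in F1, without overlap, a ratio of means of 1.84 (edgeR adjusted p = 3.39e-05). Rab26 was 32.6, 37.0, 36.6, 35.1 and 33.1 CPM in F4 and from 20.0 to 25.7 CPM (median 23.1) in F1 (edgeR adjusted p = 1.08e-04), and its F4 and F1 mice did not overlap either. Over the 22 called members the ratio of the highest to the lowest cohort mean had a median of 1.24, against 1.29 over all genes called. Exon length moved with the cohort: the slope of log2 CPM on log2 length, relative to the other libraries, was 0.045 ± 0.024 (SD, n = 10) in F1 and -0.090 ± 0.041 (n = 5) in F4. With that trend removed 22 members again passed, of which 18 were the same genes, beside 4461 of all 9636 genes. The mean log2 CPM of the 4 measured striatal markers was 5.86 in F1, 4.98 in F2, 5.14 in F3 and 5.13 in F4, and that of the 14 measured myelin markers was 7.51, 8.04, 7.37 and 7.36. Their part in the cohort differences of the Rab-named genes was not tested.

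**Figure D4:**
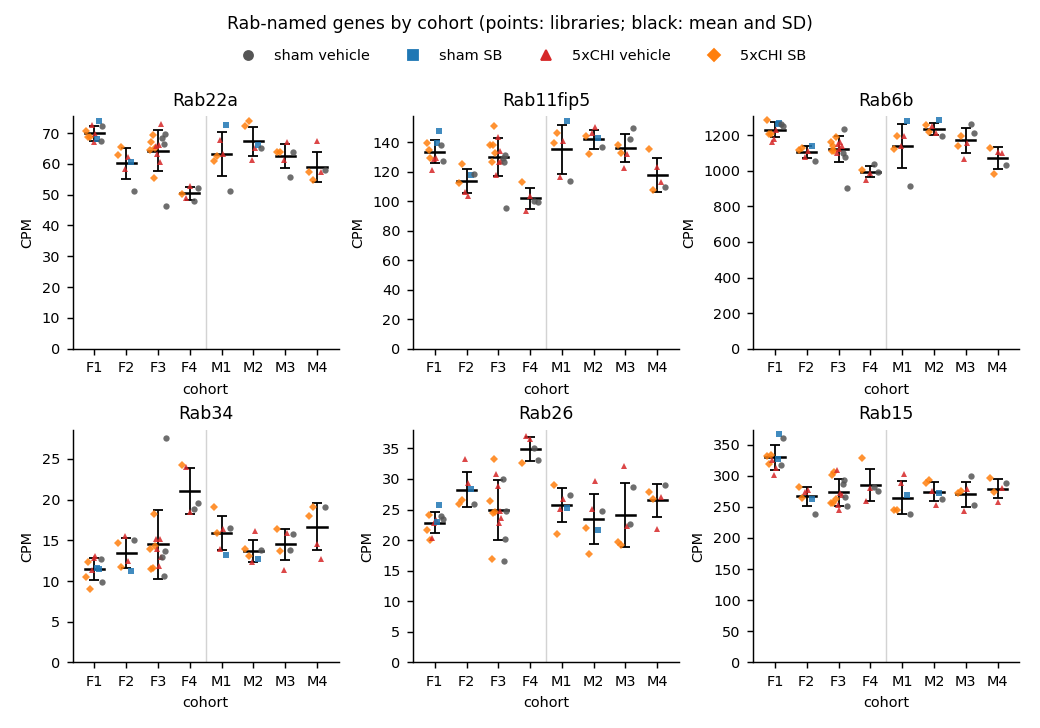
CPM of 6 Rab-named genes in every library by cohort (F1 to F4 female, M1 to M4 male), with points marked by condition and black bars for means with SDs. Among the female cohorts, the means of Rab22a, Rab11fip5 and Rab6b are lowest in F4 and those of Rab34 and Rab26 highest there, with sham and injured mice intermixed.

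Principal components of the 52 genes followed the cohort more than the condition. The first held 35.1% of their variance, of which 36.9% went with the cohort and 3.88% with the condition beyond it, and the second held 16.9%, of which 35.2% and 11.0% did. Each cohort holds mice of 1 sex, so these cohort shares, and those per gene, include any difference between females and males. All 5 mice of F4 had first-component scores between 0.69 and 1.73, and all 6 of M2 between -0.87 and -0.033. Other cohorts were spread more widely, with the 14 of F3 between -1.26 and 1.74 and the 6 of F2 between -0.44 and 1.46. At one end of this component were Rab27b, Rab30, Rab8b, Rab11fip2 and Rab39b and at the other Rab34, Rab24, Rab26, Rab36 and Rab4a. Per gene, the cohort took a median of 28.9% of the variance for the Rab-named genes and 27.3% for all genes, and the condition beyond it 7.17% and 7.36%. Rab11fip5 (57.0%), Rab6b (55.0%), Rab15 (54.5%) and Rab22a (53.6%) had the largest cohort shares.

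**Figure D5:**
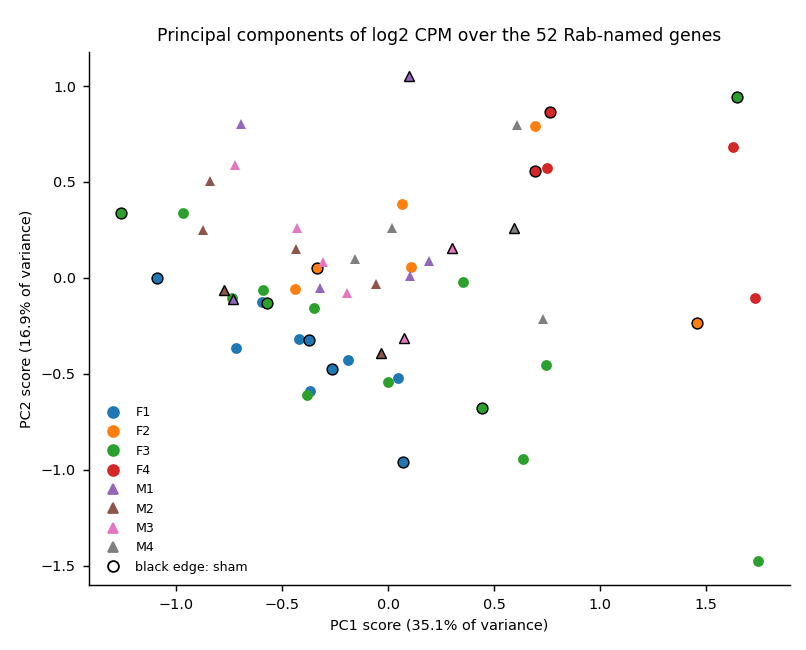
Scores of the 58 libraries on the first and second principal components of log2 CPM over the 52 Rab-named genes (35.1% and 16.9% of the variance), with circles for females, triangles for males, colours for cohorts and black edges for sham mice. All 5 libraries of F4 lie between 0.69 and 1.73 on the first component, whereas the 14 of F3 run from -1.26 to 1.74. Sham and injured mice are intermixed.

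No Rab-named gene passed the test for a sex difference. Cohorts are nested in sex, so the sex difference was tested with limma-voom with the cohort as a random block, over the injured SB, injured vehicle and sham vehicle groups. Of 52 members 0 passed, beside 0.0311% of all genes (3 genes), and 3 members stood at an unadjusted p under 0.05, beside 5.09%. Those were Rab33a (0.14 ± 0.061 higher in males on the log2 scale), Rab11fip5 (0.13 ± 0.062) and Rab33b (0.15 ± 0.073), followed by Rab40b (0.15 ± 0.089) and Rab5a (0.093 ± 0.054). The other X-linked members gave 0.080 ± 0.084 for Rab39b, 0.062 ± 0.072 for Rab9b and 0.051 ± 0.068 for Rab9. Leaving out 1 cohort brought Rab11fip5 to 0.069 (F4), Rab40b to 0.089 (F2), Rab39b to 0.048 (F4) or 0.12 (F1), Rab9b to 0.029 (M3) and Rab9 to -0.0017 (F3). In all, 39 of 52 had a positive value, beside 55% of all genes, and 49 intervals lay within 1.25-fold, beside 88.8%.

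The machinery around the GTPases was measured by 125 further genes from lists of GDP dissociation inhibitors and prenylation factors (7 of 8 measured), exchange factors (35 of 44), GTPase-activating proteins (31 of 35), effectors (49 of 61) and Rab kinases (4 of 6), with Evi5 in the lists of both GTPase-activating proteins and effectors. None of the 125 passed in edgeR for injury or for SB in injured mice, beside 0% of all genes in both. At an unadjusted p under 0.05 stood 0 and 2 of the 125, beside 1.75% and 7.06% of all genes. Gdi2, which recycles inactive Rabs, had a log2 difference of 0.034 ± 0.056 for injury and -0.055 ± 0.050 for SB. The Rab5 effectors Eea1 and Rbsn had 0.068 ± 0.060 and -0.019 ± 0.034 for injury and -0.0097 ± 0.054 and 0.036 ± 0.031 for SB. The smallest p for injury belonged to Rabac1 (-0.14 ± 0.076), a prenylated Rab acceptor, and Als2cl (-0.19 ± 0.11), a Rab5 exchange factor relative. For SB they belonged to Rin1 (0.11 ± 0.052), a Rab5 exchange factor, and Mical3 (0.11 ± 0.052), an effector of Rab8. Between female cohorts 59 of the 125 passed, beside the 50% of all genes.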

How the data were processed

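Polyadenylated RNA was sequenced from directional libraries, per the labels' protocols. The deposited table holds the authors' raw read counts per gene. The submitters' processing notes list STAR, featureCounts, DESeq2 and the build GRCm39/mm39; their versions, the annotation and the strand setting are not given in the sources used. No count in the table was below 101, and filterByExpr removed 0 genes. Chi-square values between replicates of a group were at least 9.83 per degree of freedom, so none was a repeat deposit.

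Counts were fitted in R 4.3.3 with edgeR 4.0.16 (TMM, robust quasi-likelihood test, 8 groups plus cohort within sex, 14 coefficients, 44 residual degrees of freedom, biological coefficient of variation 0.123), and the sex difference with limma 3.58.1 (cohort correlation 0.193). All tests were two-sided, adjusted by Benjamini-Hochberg at 0.05 over 9636 genes, and intervals are at 95%. Levels per kb used exon lengths from GENCODE vM21 (9549 genes, all 52 members). Principal components used log2 CPM with a prior count of 2. The fits were also run on simulated counts with known fold changes. These counts were drawn gene by gene from overall means, without the length trend and the cohort differences found here.

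Members, lists and tests were chosen with earlier results of these data known. The members named are the 5 of smallest p in each direction for the main injury and SB contrasts (none passed), the 2 of smallest p in each direction for other contrasts, the 5 of smallest p for the cohort and sex tests, the 10 highest and 3 lowest levels, the Rab3, Rab5, Rab7, Rab11 and Rab27 families, and X-linked members. Rab26 and Rab6b in the female cohort test, Rab5c among the male cohorts, and the genes named for variance were added after their values were seen. Alternatives were DESeq2 size factors, upper-quartile scaling, DESeq2 1.42.0, limma-voom with quality weights, a CPM minimum of 20, no cohort term, a replicate block, removal of the length trend, and leaving out each library or cohort. The set without the 4 far libraries (robust z over 3.5), and the other scalings and lengths for the levels, were chosen after seeing the data. The values of 1 gene of the pathway lists are not reported here.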

Additional observations from a re-analysis of the deposited data

Results flagged for a closer look

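In 4 groups of 5 to 9 mice, single libraries stood apart from the rest of their group in Dixon's test for 14 of 208 combinations of gene and group. Chance flags about 1 in 20 groups. The injured SB females (11), injured vehicle females (12) and sham SB mice (3 females, 2 males) were not screened. Among those, injured SB female 10 had the smallest share of Rab-named counts of all libraries (0.669%) and the highest first-component score (1.74). The values below are CPM.

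Among sham vehicle males, library 2 was lowest for Rab30 at 37.09 (next 44.77) and highest for Rab7 at 398 (next 342.2). Library 4 was highest for Rab10 at 174.9 (next 148.2) and for Rab14 at 311.7 (next 266.8), and library 3 for Rab23 at 33.69 (next 31.37). Of these, library 2 is among the 4 libraries far from the rest over all genes.

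Among injured vehicle males, library 6 was highest for Rab1a at 241.4 (next 218.8) and for Rab5a at 122.6 (next 110.6). Library 2 was highest for Rab31 at 115.7 (next 94.46) and lowest for Rab8a at 29.32 (next 33.27), and library 1 was lowest for Rab10os at 36.58 (next 44.65).

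Among injured SB males, library 6 was lowest for Rab11fip5 at 107.5 (next 132.1) and for Rab6b at 979.5 (next 1122), and library 7 for Rab3a at 405.1 (next 460.4). Among sham vehicle females, library 1, another of the 4 far libraries, was lowest for Rab40b at 14.53 (next 21.64).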

How the results depend on the processing

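No Rab-named gene passed for injury or SB under any alternative run. The replicate block also gave 0 members and 0 genes in each of the 11 contrasts (71 and 504 genes at an unadjusted p under 0.05 for injury and SB), and the numbers did not pair samples: same-numbered libraries had a mean correlation of -0.026 (62 pairs), against 0.19 for libraries of 1 cohort.

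Limma-voom with quality weights called 1 gene for SB in injured mice and 8 for the sex difference of the injury effect, where edgeR called 0. Without the 4 far libraries, 3 members and 1258 genes passed between male cohorts, and leaving out each library in turn gave 0 to 2 members (2 without sham vehicle female 7, where Rab11fip5 and Rab6b passed) and 28 (without sham vehicle male 1) to 769 genes (without sham vehicle female 7). The sex difference had 77 genes with no cohort term and 0 to 11 genes without each cohort in turn (0 without F1, 11 without F3), and Rab9 ran from -0.0017 to 0.092.

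No value whose sign turned had passed a test, and the cause was not tested. For injury, limma-voom gave 0.033 for Rab24, -0.019 for Rab27b and 0.013 for Rab3a. Rab27b was -0.0010 with no cohort term and -0.028 with the length trend removed. Without the 4 far libraries injury gave -0.0081 for Rab30, 0.026 for Rab24 and Rab11b, -0.084 for Rab27b, 0.047 for Rab3a, -0.0092 for Rab3c, 0.0098 for Rab5c and 0.011 for Rab7, and the sign also turned in 1 sex (injury in vehicle females: Rab3c -0.0035). In males limma-voom gave 0.0012 for Rab33a. For SB, limma-voom gave 0.017 for Rab11a, 0.0045 for Rab3c and 0.0035 for Rab5a, and Rab11a was 0.0022 with the length trend removed and 0.013 without the 4 far libraries. Leaving out each library in turn, injury values ran from -0.044 to 0.0044 for Rab11a, -0.034 to 0.018 for Rab11b, -0.046 to 0.039 for Rab27b, -0.0025 to 0.050 for Rab5a, -0.054 to 0.0039 for Rab5c and -0.025 to 0.0071 for Rab7, with sham vehicle male 2 giving the upper end for Rab11b, Rab5a, Rab5c and Rab7. SB values ran from -0.027 to 0.018 for Rab11a, -0.050 to 0.00069 for Rab27b, -0.0061 to 0.031 for Rab3a and -0.032 to 0.0022 for Rab3c.

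With the longest transcript in place of all exons, Rab6a stood above Rab6b, Rab15 above Rab14, and Rab1b replaced Rab11fip4 among the 10 highest.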
